A study of Mus musculus with 18 samples.

Results

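Socs1, Socs2, Socs3 and Cish encode suppressors of cytokine signalling, and the open chromatin around these 4 genes was described in naive CD4 T cells of the mouse. Peaks of all 18 libraries were merged into 33115 regions wherever they overlapped by at least 1 bp on build mm10. A region was given to the protein-coding gene whose nearer end lay closest to its centre, within 100 kb. That rule, which uses positions only, gave 11 regions: 4 at Socs3, 4 at Socs1, 2 at Cish and 1 at Socs2. Of the 11 regions, 2 had a peak in all 18 libraries, both at Socs1, against 8756 of all 33115.

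Open chromatin was measured by ATAC-seq, in which Tn5 transposase cuts accessible DNA and leaves sequencing adapters there. The cells were untreated, freshly prepared naive CD4+ T cells (TN) of strain C57BL6/J, labelled WT, and no source used here gives the age of the mice. Per the design text they were divided by low or high Nr4a1-dsGFP, a fluorescent reporter of Nr4a1, a gene that T cell receptor (TCR) signals switch on, which the titles call low or high tonic TCR stimulation. The genotype label does not mention this reporter. Cells came from spleen, mesenteric lymph nodes or axillary lymph nodes, with 3 libraries for each organ and reporter level, so that spleen low, spleen high, mesenteric low, mesenteric high, axillary low and axillary high formed 6 groups. The question of the series is what tonic TCR stimulation and the tissue environment do to chromatin in these cells.

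Cytokine receptors of T cells signal through JAK kinases, which phosphorylate STAT transcription factors. STATs then switch on genes of the SOCS family as a negative feedback: a SOCS protein binds the receptor or the kinase through its SH2 domain, and its SOCS box recruits a ubiquitin ligase. SOCS1 inhibits JAK kinases downstream of interferon and interleukin 2 family receptors, SOCS3 docks on gp130, the shared receptor chain of interleukin 6 (encoded by Il6st), SOCS2 is best known as a brake on growth hormone signalling, and CIS, the product of Cish, is induced through STAT5 and dampens interleukin 2 and TCR signals. In naive CD4 T cells these proteins tune the responses to survival and helper cytokines.

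The promoters of 3 of the 4 genes, from 250 bases before to 50 after the start site, are printed as RefSeq gives them for GRCm38.p6, because regions at these promoters carry most of the results below. Capitals mark the letters TTCNNNGAA, the core that STAT factors can bind, searched on both strands. The Socs3 promoter lies at chr11:117969317-117969616 and the Socs1 promoter at chr16:10785487-10785786, both on the minus strand, and the Cish promoter lies at chr9:107296409-107296708 on the plus strand.

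Socs3 promoter: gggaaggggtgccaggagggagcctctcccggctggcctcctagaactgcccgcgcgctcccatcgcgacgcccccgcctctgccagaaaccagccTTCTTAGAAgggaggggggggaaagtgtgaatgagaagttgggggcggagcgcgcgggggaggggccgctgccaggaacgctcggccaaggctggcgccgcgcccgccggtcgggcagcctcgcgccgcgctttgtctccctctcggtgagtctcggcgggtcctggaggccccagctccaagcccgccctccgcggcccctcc

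Socs1 promoter: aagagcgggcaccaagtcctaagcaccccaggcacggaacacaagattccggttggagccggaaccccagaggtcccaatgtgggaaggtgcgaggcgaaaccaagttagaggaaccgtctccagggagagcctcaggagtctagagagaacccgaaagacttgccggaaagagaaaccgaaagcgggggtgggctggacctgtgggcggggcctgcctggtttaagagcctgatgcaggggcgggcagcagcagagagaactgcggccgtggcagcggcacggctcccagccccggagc

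Cish promoter: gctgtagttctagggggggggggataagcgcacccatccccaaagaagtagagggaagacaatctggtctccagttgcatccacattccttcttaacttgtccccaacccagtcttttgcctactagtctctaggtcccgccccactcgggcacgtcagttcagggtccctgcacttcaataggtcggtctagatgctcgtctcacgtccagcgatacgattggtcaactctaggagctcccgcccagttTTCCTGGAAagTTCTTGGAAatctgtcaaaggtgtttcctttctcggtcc

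The Cish promoter held 2 such matches, TTCCTGGAA at the start site itself (0 to 8 bases from it) and TTCTTGGAA 11 to 19 bases after it. Socs3 held 1, TTCTTAGAA, at -154 to -146 from the start site, and Socs1 held none. At least 1 match was present in 8.30% of 32851 promoters of the same length, and 2 or more in 0.457%. The STAT6 form of this core, whose spacer is 1 base longer, the AP-1 letters TGANTCA and the ETS letters CGGAAG were absent from all 3 windows, against 6.95%, 7.81% and 16.9% of all promoters. A match describes letters and is not a measured binding site. GC content was 73.3% at Socs3, 63.3% at Socs1 and 53.3% at Cish. Socs2 had no entry in this table.

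The lists held 14372 to 23129 peaks per library, and relative depth was 8.48 to 16.6 reads per 10 kb of background, lowest in axillary low (8.48 to 9.53) and highest in mesenteric high libraries (16.5 to 16.6). The fragment length of the peak caller was 161 to 176 bp in 12 libraries and 216 to 236 bp in 5 axillary libraries and spleen low replicate 3. Of 12 CD4 T cell marker genes, 11 had a region, 7 of them in all libraries, and 23 to 57 regions of these genes had a peak per library, while Trac was not in the annotation table. For other cells, no library had a peak at Cd79a, Ms4a1, Csf1r, Lyz2 or Ncr1. Regions with a peak per library numbered 0 to 1 for 6 B cell genes, 0 to 6 for 6 myeloid genes (0 in every axillary library), 2 to 8 for 4 natural killer genes, 2 to 8 for 4 stromal genes, 1 to 4 for 4 dendritic cell genes, 1 to 3 for 4 red cell genes, 1 to 3 for 2 CD8 T cell genes and 2 to 8 for 3 regulatory T cell genes, of which 2 had a region in all libraries and Foxp3 had none. The highest number of every list but that of B cells was in a mesenteric library. The part of depth, fragment length or these markers in the organ differences below was not tested, except at equal depth where stated. Libraries of 1 group differed by less than the sampling noise of reads (chi-square per shared region 0.512 to 0.636 in 18 pairs; between groups it was 0.621 to 0.948 over 135 pairs). No pair of a group stood apart from the others, and all were kept as replicates. No label ties them to separate animals, and the p-values thus reflect the spread of these samples alone, which may be technical.

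**Figure D1:**
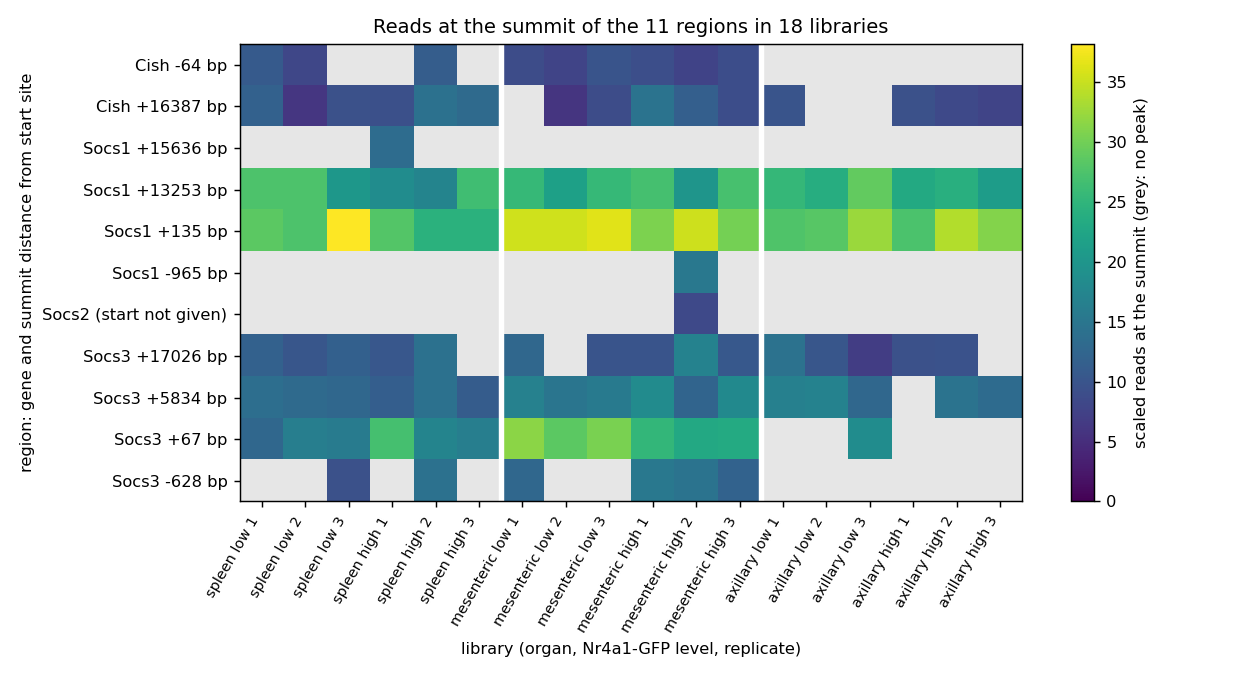
Scaled reads at the summit (colour scale) of the 11 regions (rows, named by gene and by the distance of the median summit from the start site in bp) in the 18 libraries (columns, by organ, Nr4a1-GFP level and replicate); grey marks a library with no peak. The Socs1 regions at +135 and +13253 bp are coloured in every library, and the Socs3 region at +67 bp is grey in 5 of 6 axillary libraries.

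Accessibility was read in 2 ways. Reads at the summit are the reads that cover the highest position of a peak, and local reads are those in the 10 kb around it, which the caller uses as the local background. Both were recovered as whole reads from the peak values and divided by a scaling factor per library, so both are scaled reads. Differences were tested with limma on the scale of log2(scaled reads + 1), across all regions present in every library compared, with adjustment over all of them. Exact permutation tests of single regions gave further p-values without adjustment, and the presence of peaks was compared with exact tests. Where all libraries of a group lie above all of the other, no relabelling gives a larger difference in that direction. The permutation p then restates that order. A library without a peak has no value, and a site open in fewer cells cannot be told apart from one cut less often in each cell.

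Socs3, a feedback inhibitor of gp130 receptors, had the largest fitted difference between spleen and mesenteric nodes among the 4 genes. Its promoter region at chr11:117968986-117969595 had a summit 67 bases after the start site and a peak in 6 of 6 spleen, 6 of 6 mesenteric and 1 of 6 axillary libraries. In spleen, the scaled reads at the summit were 12.8, 16.3 and 15.9 in the low and 26.9, 17.3 and 16.3 in the high libraries. In mesenteric nodes they were 31.5, 28.6 and 30.6 in the low and 25.4, 23.0 and 23.4 in the high libraries. All mesenteric libraries lay above all spleen libraries except spleen high replicate 1, which lay among them. The means were 17.6 ± 4.81 (SD, n = 6) in spleen and 27.1 ± 3.67 (n = 6) in mesenteric nodes. In a fit of these 12 libraries, added after the region was seen to have a peak in each, the log2 difference of spleen minus mesenteric was -0.62 (SE 0.13, 95% interval -0.87 to -0.37, adjusted p = 0.00209, limma). It ranked 14 of 10231 regions by p, of which 2.83% were called and 1.33% were called lower in spleen. With 1 mean per group, the adjusted p was 0.0717.

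Local reads around the Socs3 promoter separated these organs fully. The 6 spleen libraries had 66.5 at the lowest, 82.0 at the median and 99.1 at the highest, and the 6 mesenteric libraries 132.8, 141.4 and 149.3. Every mesenteric library lay above every spleen library, an order seen in 1.34% of the 10231 regions, and in 0.616% for summit reads, where it did not hold here. The means were 81.9 ± 12.3 (SD, n = 6) and 141 ± 6.67 (n = 6), and local reads fell by 0.79 on the log2 scale in spleen against mesenteric nodes (SE 0.07, 95% interval -0.94 to -0.65, adjusted p = 8.56e-14, limma). That was a 1.73-fold difference, the largest fall of the 10231 regions and the second by p after a region at Cd4. Of these regions, 12% were called and 5.84% were called lower in spleen. The exact permutation test within reporter levels gave p = 0.005, the smallest that 400 relabellings allow, and p = 0.02 for the summit. Without each replicate number in turn, the local difference ran from -0.88 to -0.69.

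**Figure D2:**
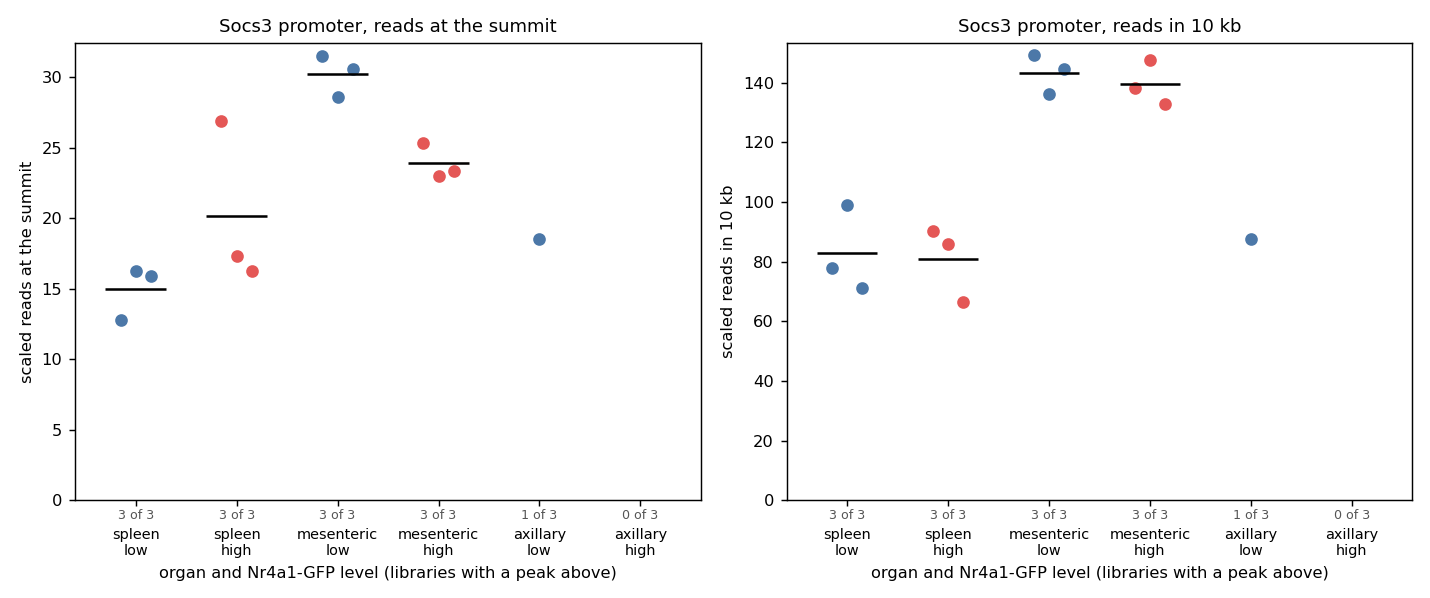
Scaled reads at the summit and in the surrounding 10 kb (vertical axes, from 0) of the Socs3 promoter region in each library with a peak, by organ and Nr4a1-GFP level (blue low, red high; black lines are group means; the number of libraries with a peak stands above each group name). Mesenteric libraries have 132.8 to 149.3 local reads and spleen libraries 66.5 to 99.1, and axillary nodes have 1 library with a peak.

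At the Socs3 promoter the reporter levels were not told apart over both organs. High minus low over both organs was 0.03 for summit reads (95% interval -0.23 to 0.28) and -0.03 for local reads (-0.18 to 0.11), adjusted p = 0.956 and 0.837 by limma. At the summit, high was above low in spleen and below it in mesenteric nodes: the difference of these differences was 0.70 (95% interval 0.20 to 1.21), with an adjusted p of 0.213 by limma, where 0.440% of regions were called. In local reads it was 0.01 (-0.28 to 0.30), with 1.56% of regions called.

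In axillary nodes, 5 of 6 libraries had no peak at the Socs3 promoter, and axillary low replicate 3 had 18.5 scaled reads at the summit and 87.6 in 10 kb. At the median background of this region, a peak in the other 5 would have needed 9 or 10 reads (10.0 to 11.1 scaled), which is below the lowest spleen library (12.8). Presence across the 3 organs gave p = 0.00210 by the exact Fisher-Freeman-Halton test and an adjusted p of 0.113 over 7630 regions, of which 0% were called after adjustment and 11.2% at an unadjusted p under 0.05. The counts stayed at 6, 6 and 1 in spleen, mesenteric and axillary libraries at equal depth, and were 5, 6 and 1 at equal list length. For equal depth, the reads and background of each called peak were scaled to the shallowest library and tested again. No new peaks were called. The lists at equal depth were still unequal, with 20682 to 20943 peaks in mesenteric high and 14362 to 15759 in axillary libraries. Fragment length was 216 to 236 bp in 5 axillary libraries and 176 bp in axillary high replicate 2. Spleen low replicate 3 had 233 bp, and the part of fragment length in the missing peaks was not tested.

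A second Socs3 region at chr11:117963320-117963760, with its summit 5834 bases after the start site and 2539 bp outside the annotated gene, had a peak in 17 libraries. Its scaled summit reads were 11.2, 13 and 14.3 (lowest, median, highest) in spleen, 12.3, 16.3 and 18.4 in mesenteric nodes and 12.8, 14.5 and 17 in the 5 axillary libraries with a peak, so that the organs overlapped. The log2 difference of spleen minus mesenteric summit reads was -0.30 (95% interval -0.60 to -0.00, adjusted p = 0.280, limma). Local reads, in contrast, did not overlap: every mesenteric library lay above every spleen library, an order seen in 1.34% of 10231 regions. Local reads were 42.5, 53.0 and 64.2 in spleen, 75.3, 91.6 and 100.2 in mesenteric nodes and 54.4, 64.0 and 68.7 in axillary nodes. The log2 difference of spleen minus mesenteric was -0.76 (95% interval -0.95 to -0.58, adjusted p = 1.81e-09, limma). Of the regions tested, 5.84% were called lower in spleen in local reads. The 10 kb windows of this region and the promoter overlap, so both values count some of the same reads.

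The other Socs3 regions were weaker. A region at chr11:117969820-117970156, at -628 from the start site and inside the annotated gene, had a peak in 2 spleen, 4 mesenteric and 0 axillary libraries (presence across organs p = 0.0845, adjusted p = 0.385, exact Fisher-Freeman-Halton test). Its window is mostly that of the promoter, and local reads were 70.0 and 85.0 in spleen and 128.2 to 140.2 in mesenteric nodes. A region at chr11:117952137-117952729, with its summit 17026 bases after the start site and 13646 bp outside the gene, had a peak in 5 of 6 libraries of each organ. Its summit reads did not separate spleen from mesenteric nodes (log2 difference of mesenteric minus spleen 0.00, exact permutation p = 0.99). Its window does not reach the promoter region, and its local reads (lowest, median, highest) numbered 34.0, 36.7 and 41.1 for spleen, 41.5, 44.1 and 50.7 for mesenteric nodes, and 30.8, 31.3 and 46.3 for axillary nodes. Every mesenteric library lay above every spleen library, with a log2 difference of 0.29 (exact permutation p = 0.01, the smallest that 100 relabellings allow). Of 4048 regions with a peak in 4 or more spleen and 4 or more mesenteric libraries but not all 12, 1.70% had that order in local reads and 0.840% in summit reads.

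The nearest neighbours of Socs3 were read beside it. A region 1300 bp from an end of Tha1, which encodes threonine aldolase, had a peak in 17 libraries and also had fewer reads in spleen than in mesenteric nodes. Summit reads differed by -0.57 (adjusted p = 0.0164) and local reads by -0.64 (adjusted p = 2.60e-07, limma), where 1.33% and 5.84% of regions were called lower in spleen. Mean local reads of spleen, mesenteric and axillary libraries with a peak came to 50.8, 78.9 and 62.2. Another region, 4919 bp from an end of Tha1, had a peak in 2 spleen, 6 mesenteric and 3 axillary libraries. Its mean local reads in those were 30.4, 40.2 and 27.6. A region 638 bp from an end of Pgs1, which encodes phosphatidylglycerophosphate synthase, had a peak in 10 libraries, and its mean local reads in those were 32.2 in spleen and 29.1 in mesenteric nodes.

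Socs1, the JAK inhibitor, had the region with the most summit reads on average among the 11. Its promoter region at chr16:10785045-10785857, with the summit 135 bases after the start site, had a peak in all 18 libraries. Spleen libraries had 24.4, 27.7 and 38.2 scaled summit reads (lowest, median, highest), mesenteric libraries 30.2, 35.4 and 36.5, and axillary libraries 27.4, 29.7 and 33.8. By level they were 27.5, 32.5 and 38.2 in the 9 low and 24.4, 30.2 and 35.3 in the 9 high libraries. The organs and the levels overlapped. In the fit of all 18 libraries, high minus low was -0.12 (95% interval -0.30 to 0.05, adjusted p = 0.574), spleen minus mesenteric -0.26 (adjusted p = 0.206), spleen minus axillary -0.09 (adjusted p = 0.689) and mesenteric minus axillary 0.17 (adjusted p = 0.336, limma). Of the 8756 regions, 1.50%, 1.70%, 6.91% and 11.4% were called in these comparisons. High minus low within an organ, where 0.206% were called in spleen, 1.42% in mesenteric and 0.320% in axillary nodes, did not pass at either shared Socs1 region, nor did the difference of the level effect between organs, where 0.251% were called.

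Local reads around the Socs1 promoter were highest in mesenteric nodes. They were 153.9, 172.2 and 183.8 in spleen (lowest, median, highest), 192.3, 196.6 and 207.6 in mesenteric nodes and 132.1, 164.2 and 186.3 in axillary nodes. Every mesenteric library lay above all libraries of the other organs, and the share of all regions with this order was not counted. Every mesenteric above every spleen library, without regard to axillary nodes, was seen in 1.34% of 10231 regions. Mesenteric minus axillary was 0.30 (95% interval 0.18 to 0.41, adjusted p = 7.18e-05) and spleen minus mesenteric -0.22 (-0.33 to -0.10, adjusted p = 0.00934, limma). With 20.6% and 8.47% of regions called, neither call is rare in these libraries. Spleen minus axillary was 0.08 (adjusted p = 0.356, 16.0% called) and high minus low 0.06 (adjusted p = 0.490, 7.02% called, limma). The call against spleen was lost without replicate 2 (adjusted p = 0.187) or 3 (0.0664) of every group, without the variance trend (0.0935) and with 1 mean per group (0.226), while the call against axillary nodes held with each replicate left out and with group means (adjusted p = 0.0292, limma).

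A Socs1 region at chr16:10772043-10772552, 13253 bases after the start site and 11511 bp outside the gene, also had a peak in all 18 libraries. Spleen libraries had 17.3, 23.3 and 27.6 scaled summit reads, mesenteric libraries 20.0, 25.6 and 27.1, and axillary libraries 21.1, 24 and 29.0, and the organs overlapped. High minus low was -0.15 at the summit (adjusted p = 0.569) and -0.01 in local reads, and spleen minus mesenteric local reads differed by -0.13 (adjusted p = 0.339, limma). The difference of the level effect between organs in local reads did not pass (adjusted p = 0.237, F test of limma), where 1.06% of regions were called. The last Socs1 regions had a peak in 1 library each: chr16:10769795-10770021 with 13 reads in spleen high replicate 1, and chr16:10786346-10786508, at -965 from the start site, with 20 reads in mesenteric high replicate 2. The promoter region of Rmi2, a neighbour that encodes a genome stability factor, was present in all 18 libraries, and its summit reads in spleen minus mesenteric differed by -0.19 (adjusted p = 0.495) and its local reads by -0.25 (adjusted p = 0.0591, limma), beside -0.22 in local reads at the Socs1 promoter.

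**Figure D3:**
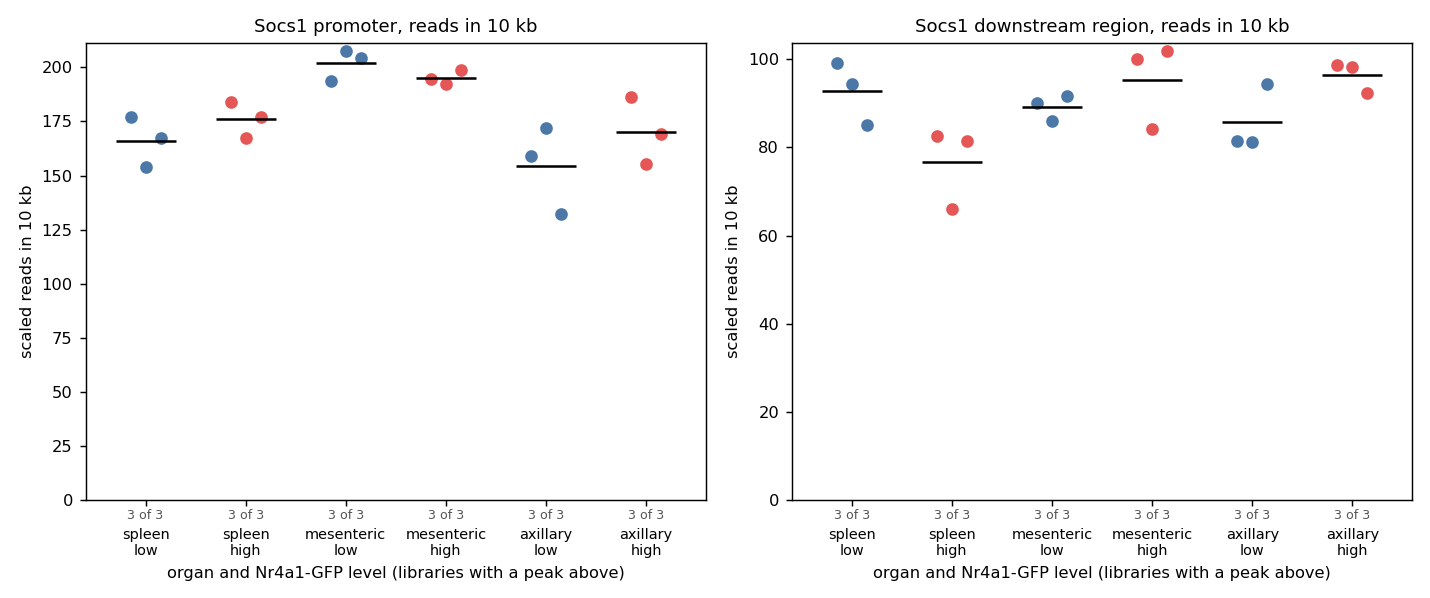
Scaled reads in 10 kb (vertical axes, from 0) of the Socs1 promoter region and the Socs1 region 13253 bases after the start site in each of the 18 libraries, by organ and Nr4a1-GFP level (blue low, red high; black lines are group means). At the promoter the mesenteric libraries sit at 192.3 to 207.6 and all other libraries at or below 186.3; at the downstream region the organs overlap.

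**Figure D4:**
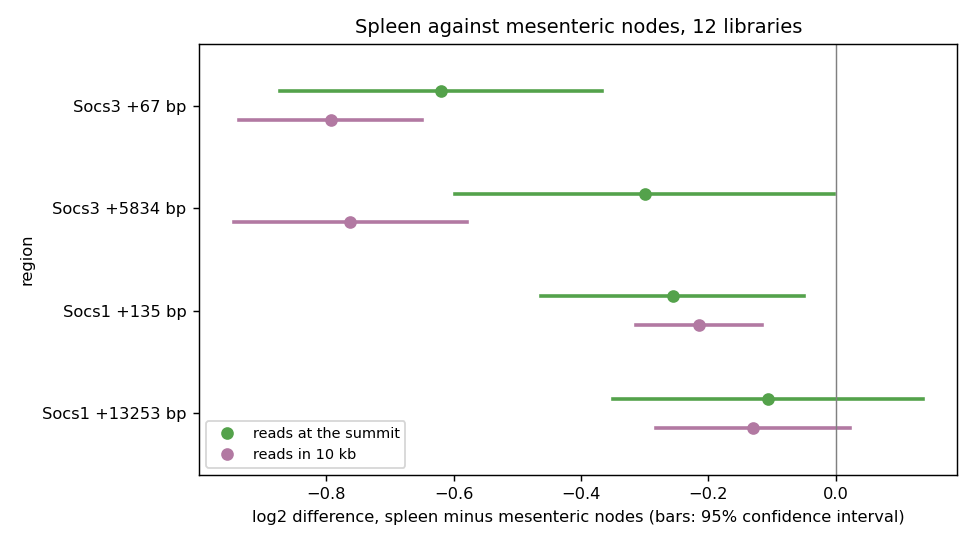
Log2 difference of spleen minus mesenteric nodes (horizontal axis; bars are 95% confidence intervals) in the fit of 12 libraries for the 4 Socs3 and Socs1 regions with a peak in all of them, for reads at the summit (green) and reads in 10 kb (purple). Both values of the Socs3 promoter lie between -0.79 and -0.62, and the interval of the Socs1 region at +13253 bp includes 0 for both measures.

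Cish, whose product restrains interleukin 2 and TCR signals, had 2 weak regions. The promoter region at chr9:107296374-107296942, with its summit 64 bases before the start site and both STAT letter matches inside it, had a peak in 3 spleen, 6 mesenteric and 0 axillary libraries. Summit reads were 8 to 12 before scaling and 7.68 to 11.2 after it. A peak in the libraries without one would have needed 6 reads (6.11 to 7.25 scaled), so the absence is not far below the levels seen. Presence across organs gave p = 0.00247 and an adjusted p of 0.116 by the exact Fisher-Freeman-Halton test, and the counts were 3, 4 and 0 at equal depth and 2, 2 and 0 at equal list length. Presence was 4 of 9 in high and 5 of 9 in low libraries (p = 1, Fisher's exact test). Of the 5737 regions tested in this way, 0% were called after adjustment and 6.10% at an unadjusted p under 0.05.

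Where the Cish promoter had a peak, more reads lay around it in high than in low libraries. Local reads were 31.9, 37.7 and 33.8 in mesenteric low and 57.7, 49.4 and 38.8 in mesenteric high libraries. They did not overlap, though the lowest high value (38.8) was close to the highest low value (37.7). The share of all regions with this order was not counted. In spleen they were 34.0 and 36.6 in the low libraries and 40.1 in the high library with a peak. In the fit of the 6 mesenteric libraries, high minus low was 0.47 in local reads (95% interval 0.16 to 0.78, adjusted p = 0.0470, 7.69% of 12621 regions called) and -0.03 in summit reads (adjusted p = 0.970, 2.86% called, limma). The exact permutation test within organs gave p = 0.0167 for local reads, the smallest that 60 relabellings allow.

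A Cish region at chr9:107312745-107313404 lay 16387 bases after the start site and 10290 bp outside the gene, with no annotated gene within 5 kb. Peaks were there in 9 of 9 libraries with high and 6 of 9 with low reporter signal (6 of spleen, 5 mesenteric, 4 axillary), with 6 to 19 summit reads before scaling. Local reads were 26.6, 17.3 and 23.7 in spleen low and 27.2, 29.6 and 36.5 in spleen high libraries. In mesenteric nodes they were 20.3 and 18.3 in the low libraries with a peak and 33.5, 34.1 and 27.6 in the high libraries, and in axillary nodes 21.3 in the low library with a peak and 28.8, 24.9 and 25.3 in the high libraries. Every high library lay above every low library of its organ, an order found in 1.78% of 4932 regions with a peak in 12 to 17 libraries. In summit reads the order was found in 0.608% of them and not at this region.

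The mean log2 difference of high minus low within organs was 0.50 in local reads of this distal Cish region (exact permutation p = 0.00125, the smallest that 800 relabellings allow). It was 0.30 in summit reads (exact permutation p = 0.15). The same test was run in both kinds of reads on the Cish promoter region, all Socs3 regions and both shared Socs1 regions. The test was chosen after the values were seen. At the distal Cish region every high library lay above every low library of its organ in local reads, so the p of 0.00125 restates that order. Without replicate 1 the difference was 0.68, with p = 0.0556 by the exact permutation test, the smallest that the 36 relabellings of these libraries allow, so that this test could not pass. In spleen alone, limma gave 0.46 in local reads (95% interval 0.04 to 0.87, adjusted p = 0.301, 0.934% of 10916 regions called) and 0.41 in summit reads (adjusted p = 0.633, 0.156% called). The windows of both Cish regions do not overlap. The promoter region of the neighbour Mapkapk3, a kinase gene of the p38 pathway, had a peak in all 18 libraries, and its summit reads in spleen minus mesenteric differed by -0.31 (adjusted p = 0.214) and its local reads by -0.05 (adjusted p = 0.737, limma). These values compare organs, and high against low at this neighbour is not given here.

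**Figure D5:**
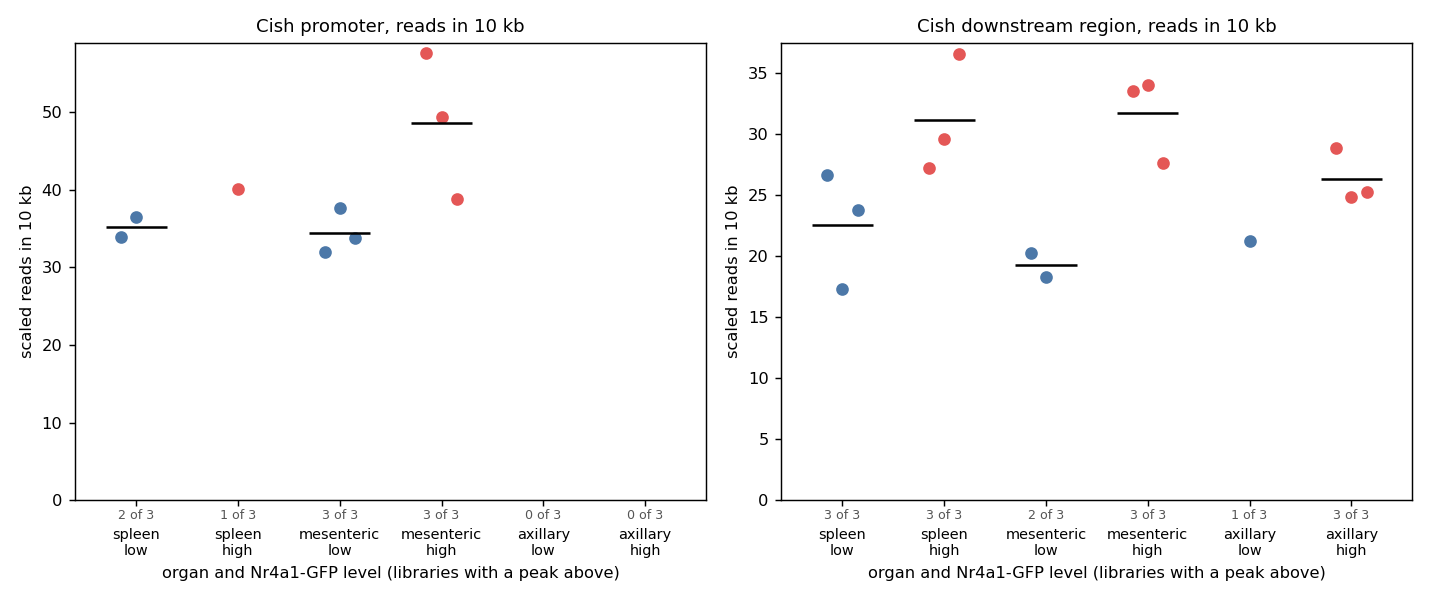
Scaled reads in 10 kb (vertical axes, from 0) of the Cish promoter region and the Cish region 16387 bases after the start site in each library with a peak, by organ and Nr4a1-GFP level (blue low, red high; black lines are group means; the number of libraries with a peak stands above each group name). At the downstream region the high libraries lie above the low libraries of their organ, at 24.9 to 36.5 against 17.3 to 26.6 over all organs.

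Socs2, the brake on growth hormone signalling, had 1 region, at chr10:95416976-95417185, 241 bp inside an end of the gene. It had a peak in mesenteric high replicate 2 alone, one of the deepest libraries, with 11 reads at the summit, so no comparison could be made. Promoter regions of the genes on either side, Cradd (an adaptor of caspases) and Mrpl42 (a mitochondrial ribosomal protein), had a peak in all 18 libraries, and neither passed the test of spleen against mesenteric nodes (0.15 and -0.07 in summit reads, adjusted p = 0.587 and 0.821, limma).

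Of 50 other genes of the JAK-STAT pathway (other Socs genes, the SOCS box ligase, kinases, STATs, receptors, phosphatases, PIAS proteins and targets), 34 had 43 regions in all 18 libraries. In summit reads 0 of the 43 were called for high against low or for spleen against mesenteric nodes by limma, where 1.50% and 1.70% of all regions were called, a share at which fewer than 1 of 43 would be. Against axillary nodes, 3 were higher and 2 lower in spleen, and 4 were higher and 1 lower in mesenteric nodes, which is 11.6% in both comparisons beside 6.91% and 11.4% of all regions. A region of Pim1, a STAT5 target kinase, was higher in spleen (0.46, adjusted p = 0.00460) and in mesenteric nodes (0.44, adjusted p = 0.00499, limma) than in axillary nodes, which both comparisons share. A region of Il6st, the gp130 chain that SOCS3 binds, was lower in both (-0.72 and -0.54, adjusted p = 0.000187 and 0.00410, limma).

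In local reads of the 12 spleen and mesenteric libraries, 55 regions of 40 pathway genes could be compared. Of these, 1 was higher and 11 were lower in spleen, with a median log2 difference of -0.06 beside 0.00 over all 10231 regions. That is 12 of 55 regions (21.8%), beside 12% of all regions called and 5.84% called lower in spleen. In summit reads of the same libraries, 0 of the 55 were called, beside 2.83% of all regions. A region each of Il6ra and Il6st, both chains of the interleukin 6 receptor, had fewer local reads in spleen (-0.33 and -0.35, adjusted p = 0.000777 and 0.00128), as had a region of Ifnar1, a chain of the type I interferon receptor (-0.33, adjusted p = 0.00851, limma). A region of Ptpn6, the phosphatase SHP-1, had more local reads (0.39, adjusted p = 0.00819, limma). These genes had 3 to 9 regions each. For high against low, 1 of the 43 shared regions was called, at Ptpn11, the phosphatase SHP-2 (0.32 higher in high, adjusted p = 0.0483, limma), which is 2.33% beside 7.02% of all regions.

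The genes whose strongest shared region followed the Socs1 promoter most closely over the 18 libraries, among 7067 compared on the log2 scale of summit reads, were Ldhb (Pearson r 0.79), Id2 (0.77) and Zfp707 (0.71). These libraries share organs, depth and reporter levels, and the correlations are a description only. Socs2, Socs3 and Cish had no region in all 18 libraries and were not compared in this way.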

How the data were processed

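ATAC-seq peak lists of 18 libraries were used, 1 per library, so these peaks were called per sample. Per the submitters' processing notes the build was mm10, reads were handled with Trimmomatic 0.33 and Bowtie2, and bedtools and MACS are also named; other versions, duplicate handling and read shifting: not given in the sources used here. Each deposited peak carries the authors' fold enrichment, a ratio of summit reads to local background, a −log10 p, a −log10 q and a score. Of 314829 deposited peaks, 404 on other sequences were left out. Whole summit reads and local background were recovered from the fold and the Poisson −log10 p within 0.002 in 99.3% of peaks. The design had assumed summit reads; local reads, the fits of 12 or 6 libraries and the permutation tests over libraries with a peak were chosen after seeing the data.

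Libraries were scaled by the median of ratios over shared regions. Values were tested with limma 3.58.1 (R 4.3.3, variance trend, Benjamini-Hochberg over all regions, threshold 0.05) on log2(scaled reads + 1), and presence with two-sided exact tests (Python 3.11.15, scipy 1.17.1) on regions in 6 to 12 libraries for levels or 5 to 13 for organs. The fits were tested on simulated data. Permutation tests were two-sided. Groups and replicate numbers came from the titles. Same-numbered libraries of different groups did not deviate together (correlation -0.027 to 0.037 in 45 pairs), so the numbers were not used as pairs. Genes and promoters came from RefSeq tables of GRCm38.p6. All member regions were described; pathway genes were named where called, at most 3 per direction and comparison, with the flanking genes and the 3 most similar genes. The members and lists were chosen with earlier results of these data known. No genome sequence was used.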

Additional observations from a re-analysis of the deposited data

How the results depend on the processing

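Counts and calls over the member regions stayed within 1.5 times the reported count in 169 comparisons with an alternative and moved further in 7, and 0 values reversed. In both presence tests and in all summit comparisons of the 18 libraries the reported count was 0. An unchanged count there means 0 calls in both settings and does not speak for a reported difference. Scaling by the genome-wide background instead of shared regions shifted the median of all regions by -0.20 in spleen minus mesenteric summit reads and by -0.19 in local reads, and called 1 of 2 shared regions for spleen against mesenteric nodes and for mesenteric against axillary nodes in summit reads, 1 for spleen against axillary nodes in local reads, and 3 of 4 in the 12 libraries. Relative to that shift the differences of the Socs1 and distal Socs3 regions are close to those reported. A −log10 p of at least 10, which left 2 of the 4 regions to test, and 1 mean per group, which left fewer values, each called 0 in summit reads of the 12 libraries. Assigning every region within 100 kb to a member, whatever its nearest gene, gave 43 regions in place of 11. With the replicate block, the Socs3 promoter difference kept its value of -0.62 (adjusted p = 0.00220, limma), and the block changed no call. The numbers do not pair the samples, with 0 of 45 correlations over 0.1. Summit reads of the Socs3 promoter ran from -0.64 to -0.58 when each replicate number was left out. Of the single regions, 311 comparisons kept their side of the threshold, 7 gained a call and 10 lost one. Summits of 6 to 24 reads limit Cish, Socs2 and the distal Socs3 regions, where a missing peak does not show closed chromatin.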

Other observations

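The smallest p-values in local reads of spleen against mesenteric nodes, chosen after seeing the values, belonged to few genes besides Socs3. Regions at Hsp90ab1, Ubb and Dnajb1, which encode a chaperone, ubiquitin and a co-chaperone of the heat shock response, were lower in spleen by limma in the 12 libraries (-0.51, -0.52 and -0.43, adjusted p = 1.23e-12, 9.77e-10 and 1.24e-09), with mean scaled local reads of 166 against 237, 106 against 151 and 155 against 209. A region at Cd4 was lower as well (-0.31, adjusted p = 5.85e-14), and a region at Mkln1 (-0.41, adjusted p = 9.17e-10). In the other direction, 3 regions at Nr4a1, the gene of the reporter, were higher in spleen, the first by 0.23 (adjusted p = 1.31e-12, limma), with 1340 mean local reads against 1149. Whether the 10 kb windows of these 3 regions count some of the same reads was not checked. A region at St3gal6 was also higher in spleen (0.76, adjusted p = 7.40e-10, limma).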
